A study of Mus musculus with 2 samples.

Results

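Synaptotagmins, SNARE proteins and their close partners were compared between 2 RNAs from mouse embryonic fibroblasts (MEFs). The genes were taken by name, as every gene on the array whose symbol follows the numbered Syt, Sytl, Vamp, Snap, Stx or Stxbp series, which gave 53 of the 27745 gene names on the array. They were represented by 104 probes, all with a usable value on both arrays. The set was chosen with results from these arrays already known, so its values are given as a description, with no test of the set.

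Transport vesicles fuse with their target membrane when SNARE proteins on both sides zip together. VAMPs sit mainly on the vesicle, syntaxins and the SNAP25 family on the target membrane, and syntaxin-binding proteins of the Munc18 family guide their pairing. Synaptotagmins are membrane proteins with C2 domains, some of which sense calcium and trigger fusion, whereas the synaptotagmin-like proteins hold Rab27 vesicles at the plasma membrane. In neurons this machinery releases transmitter. In fibroblasts it serves secretion, endosome and lysosome traffic, and membrane repair.

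The RNAs came from untreated MEFs of C57BL/6J mice, one labelled Lats2-/- (KO) and the other Lats2+/+ (WT), a comparison made in a study of the Lats2 kinase of the Hippo pathway. The genotype fields spell the gene LAT2, while the titles spell it LATS2. Both were applied together to Agilent arrays that cover the mouse genome, once with the KO RNA in the red dye Cy5 and once with it in the green dye Cy3. Embryo age and the number of embryos behind each RNA are not given in the sources used here. The 2 arrays were read as a dye swap of the same RNAs and count as 1 replicate of each genotype, so the genotypes have no replicate check and no p-value is given.

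Values are log2 ratios of KO over WT, in the order KO in Cy5 and then KO in Cy3, followed by the mean. Between the arrays, a probe's ratio had an SD of 0.133 over all probes and of 0.152 over the 69 member probes that were detected. Detected means that the scanner software flagged the probe as well above background on both arrays in at least 1 genotype. Lats2 itself was higher in the RNA labelled KO with 3 of its 4 probes (means of 0.63, 0.56 and 0.56) and lower with the other one (-0.35). The part of the gene that was deleted is not given in the sources used here, and a probe outside it checks nothing. Every direction below therefore rests on the labels, and the samples are named as RNA labelled KO or WT. All 10 fibroblast markers examined were detected, Vim only in the RNA labelled WT. The Vim probe was dim in both RNAs, with signals of 74.8 and 79.2 (KO) against 130 and 156 (WT). Among markers of other cell types, 3 of 9 neuron, 4 of 8 neuroendocrine, 3 of 4 Schwann or neural crest and 4 of 5 blood cell genes were detected, and none of the 4 endothelial, 4 epithelial and 4 muscle genes. The detected neuroendocrine, Schwann or neural crest and blood cell genes were dim, with signals no higher than 139 (S100b). Of the neuron genes, Syn1 was at 11157 and Tubb3 at 1040 in the RNA labelled KO on the first array. No marker of any of these lists differed by 2-fold on both arrays. The fibroblast markers ranged from -0.89 (Vim, from its dim probe) to 0.89 (Fn1) with a median of -0.33. The part of these marker genes in the values below was not tested.

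Of the 53 genes, 37 were detected with the probe that stands for them, the one of highest mean intensity, and 34 of these in both genotypes. A gene was called when it differed by at least 2-fold, with the same sign on both arrays, and was detected in the genotype where it was higher. By this rule Syt13 was called higher and Snap91 lower in the RNA labelled KO. Over all 27579 genes with a usable probe, 469 (1.7%) were called higher and 414 (1.5%) lower. With median centring in place of loess these became 250 and 138. Counted by probe, 2 member probes were called higher and 1 lower, against 1.47% and 1.23% of all probes. The 2 calls among 53 genes lie near that background share. The detected members had a median of 0.08 against -0.00 for the 15877 detected genes of the array, with 20 above 0 and 17 below. Mean ratios of at least 0.5 with the same sign on both arrays were seen in 6 detected members upward and in 5 downward, against 6.41% and 6.58% of all genes. Those percentages are over all 27579 genes, of which 15877 were detected, whereas 37 of the 53 members were. The counts and percentages therefore have unlike bases. Most of the 37 detected members had mean ratios below 0.5 in size.

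**Figure D1:**
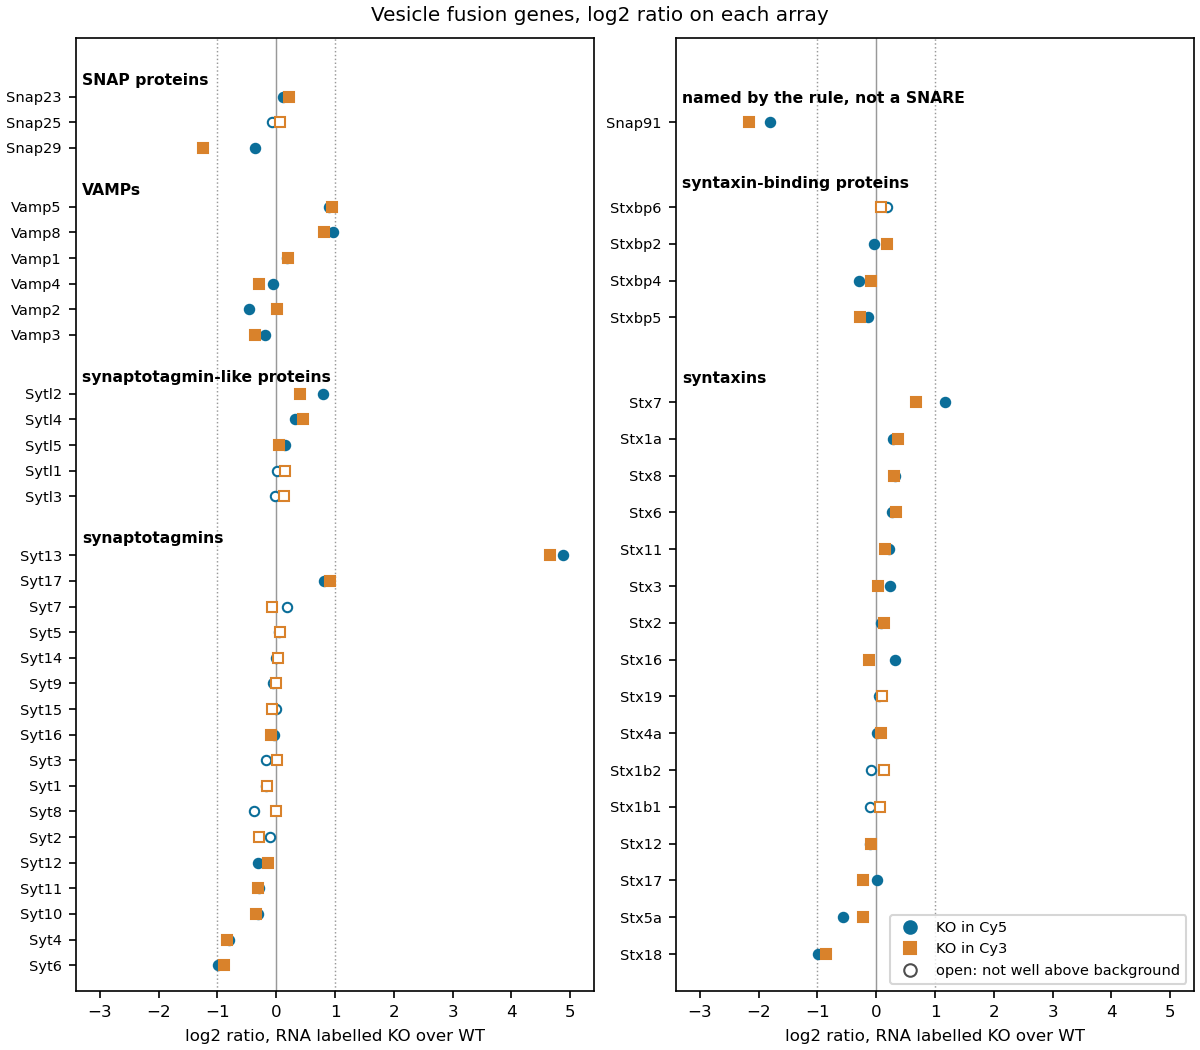
Log2 ratio of KO over WT (x axis) for 52 of the genes (y axis, grouped by family), with circles for the array with KO in Cy5 and squares for the array with KO in Cy3. Open symbols mark genes not well above background, and dotted lines mark 2-fold. Syt13 lies far to the right at 4.88 and 4.66, Snap91 to the left at -1.80 and -2.16, and most other genes lie between the dotted lines.

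Vamp5 and Vamp8 are neighbours on chromosome 6 and were both close to 2-fold higher in the RNA labelled KO, so the sequences before their start sites are shown. They are the 250 bases upstream of each annotated start in RefSeq (GRCm38.p6, minus strand, chr6:72380469-72380718 for Vamp5 and chr6:72390668-72390917 for Vamp8), written 5′ to 3′ along the gene, with CpG dinucleotides in capitals.
Vamp5: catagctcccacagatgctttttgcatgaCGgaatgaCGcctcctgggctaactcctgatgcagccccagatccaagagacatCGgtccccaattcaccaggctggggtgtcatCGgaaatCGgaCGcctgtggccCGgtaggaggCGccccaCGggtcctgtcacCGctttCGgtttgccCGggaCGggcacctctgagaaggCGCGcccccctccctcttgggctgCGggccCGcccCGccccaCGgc
Vamp8: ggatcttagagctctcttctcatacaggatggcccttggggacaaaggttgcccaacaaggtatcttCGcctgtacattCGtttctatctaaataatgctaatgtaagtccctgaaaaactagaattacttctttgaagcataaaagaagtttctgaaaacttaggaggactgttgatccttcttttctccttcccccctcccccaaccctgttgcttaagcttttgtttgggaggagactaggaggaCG
The stretches differ in base composition: the Vamp5 sequence holds 19 CpG and the Vamp8 sequence 3. Over windows of 300 bases, which add the first 50 bases of the transcript, the ratio of observed to expected CpG was 0.739 for Vamp5 and 0.306 for Vamp8, against a median of 0.384 over all 32851 mouse promoter windows. Windows were found for 40 of the 53 members, not for Syt13. The best window of a member held a median of 22 CpG for 29 detected genes and 17 for 11 undetected ones. The letters GGAATG, the core of the motif bound by TEAD factors, were searched on both strands. They occurred in the Vamp5 window and not in that of Vamp8, in 8 of the 51 windows of members (15.7%), and in 14.7% of all windows.

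Among the calcium sensors and their relatives, the synaptotagmins, 1 gene dominated. Syt13, an atypical member that does not bind calcium, gave log2 ratios of 4.88 and 4.66 on chromosome 2 (92756500 to 92756559 on the NCBI36 build, as are all probe positions). In normalised units its signal was 3604 in the RNA labelled KO against 122 in the RNA labelled WT on the first array, and 2921 against 115 on the second. The mean of 4.77 is a 27.3-fold difference, and the probe was well above background in all 4 channels. A further Syt13 probe at 92741673 to 92741732 was detected in the RNA labelled KO only and gave 0.10 and 0.14, with signals of 77.9 and 76.2 against 72.9 and 69.2. The evidence for Syt13 thus rests on 1 of its 2 probes. The mean over both probes was 2.44, still past 2-fold.

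A group of synaptotagmins lay lower in the RNA labelled KO, none of them called. Syt6 had ratios of -0.98 and -0.88, from signals of 318 against 629 and of 313 against 578, just short of 2-fold. Syt4, which is found on secretory vesicles of neurons and endocrine cells, was undetected on each array in the RNA labelled KO. It was detected in the RNA labelled WT at signals of 117 and 129, at least 1.76-fold over the RNA labelled KO. A further Syt4 probe ran the same way, at -0.65 and -0.60. The reverse held for Syt17, which was at 131 and 122 in the RNA labelled KO and undetected in the RNA labelled WT, at least 1.82-fold higher. These bounds depend on the treatment of the background: in the ratio of the scanner software, Feature Extraction, which has no offset, Syt4 stood at -3.59 and Syt17 at 3.16. By that ratio 2 members were called higher (Syt13 and Syt17) and 4 lower (Snap91, Syt4, Syt6 and Syt12), where 3.41% and 3.14% of all genes were.

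The remaining detected synaptotagmins had smaller ratios. Syt10, whose brighter probe carried signals of 7422 and 7564 in the RNA labelled KO, was at -0.32 and -0.34. Its other probe, at 62.7 and 62.0 there, was not well above background in either RNA. Syt11, an atypical form abundant in brain, was at -0.29 and -0.31, Syt12 at -0.32 and -0.15, and Syt16 at -0.04 and -0.09. The other probes of Syt12 and Syt16 were not well above background. Over the 8 detected synaptotagmins the median was -0.27, with 6 below 0. Syt1, Syt2 and Syt9, the fast calcium sensors of neurotransmitter release, stayed undetected in both RNAs, as did Syt5, Syt7, Syt8, Syt14 and Syt15, while Syt3 was well above background in 1 channel of 1 array. All 3 detected synaptotagmin-like genes were above 0. Sytl2, a Rab27 effector, had 0.80 and 0.40, Sytl4 (granuphilin) 0.33 and 0.46, and Sytl5 0.15 and 0.05, the last one within the SD between the arrays. Sytl1 and Sytl3 were not well above background.

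**Figure D2:**
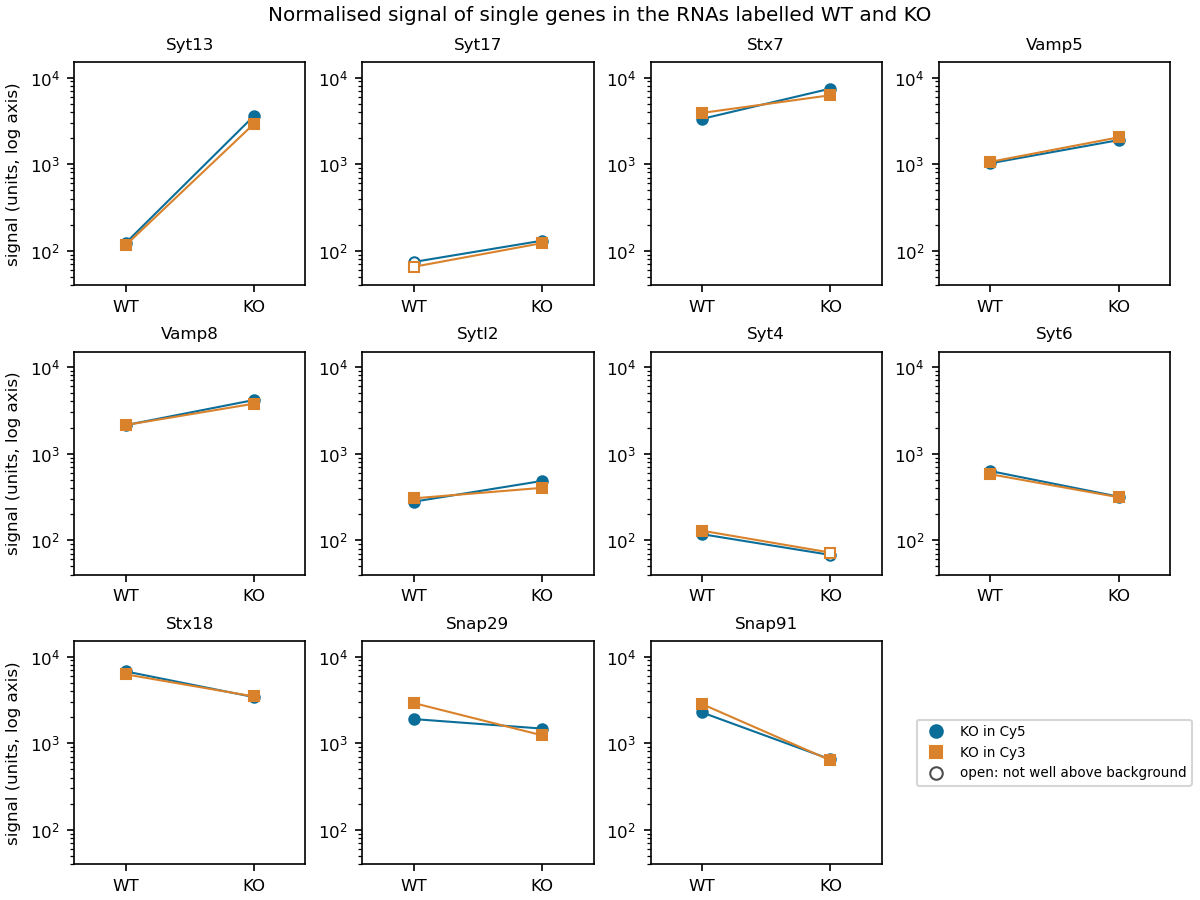
Normalised signal in arbitrary units (y axis, log scale) in the RNAs labelled WT and KO (x axis) for the 11 members with a mean ratio of at least 0.5 in size, with circles and solid blue lines for the array with KO in Cy5 and squares and orange lines for KO in Cy3. Open symbols are not well above background. Syt13 goes from 122 and 115 to 3604 and 2921, and the lines of Snap29 differ most in slope between the arrays.

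Among the vesicle SNAREs, Vamp5 and Vamp8 stood above the other VAMPs. Vamp8 (endobrevin), which serves fusion with late endosomes, lysosomes and the secretory surface, had ratios of 0.96 and 0.82 with its brighter probe, at 72315035 to 72315094 on chromosome 6. Its other probe, at 72317812 to 72317871, gave 1.003 and 1.22 and so lies just inside the 2-fold rule, while the brighter one lies just outside. Both probes were thus higher in the RNA labelled KO on each array. Vamp5, first described in muscle, is represented by a probe that starts 16100 bases away, and it had 0.89 and 0.94, from signals of 1893 against 1022 and of 2038 against 1062. A dimmer Vamp5 probe at 72298078 to 72298137 gave 0.17 and 0.16. The probes of Vamp5 therefore disagreed by 0.75, and their mean was 0.54.

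The other VAMPs were within 0.5 of no difference. Vamp3 (cellubrevin), a SNARE of recycling endosomes in most cells, was at -0.20 and -0.36, and its other probe at -0.32 and -0.34. Vamp4 of the Golgi was at -0.05 and -0.29, and Vamp1 at 0.18 and 0.19. Vamp2, the vesicle SNARE of synapses, differed between the arrays with its brightest probe, at -0.46 and 0.01, whereas its other probes gave means of 0.11 and 0.08. Vamp7 appears on the array under its older symbol Sybl1, outside the name rule, and was at 0.12 and -0.05. Over the 6 VAMPs of the rule the median was 0.01.

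Among the SNAP25 family, the neuronal Snap25 was not well above background. Snap23, its counterpart in non-neuronal cells, gave 0.11 and 0.21, and its other probes gave means of 0.15 and 0.14. Snap29, which serves fusion of autophagosomes with lysosomes, was at -0.36 and -1.24 with its brightest probe, the widest disagreement between the arrays among detected members (0.874). Its other probes had means of -0.16 and -0.12, and all 3 probes were below 0 on both arrays. Snap47 is listed as 1110031B06Rik. The probe whose accession matched it was at 0.12 and -0.07, and the brighter probe of that name, without a match, at 0.22 and -0.32.

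Snap91 carries a similar symbol and is not a SNARE: it is AP180, an assembly protein of the clathrin coat in synaptic vesicle recycling. It was the only called member that was lower in the RNA labelled KO. Its signal was 649 against 2259 on the first array and 633 against 2822 on the second, giving ratios of -1.80 and -2.16 and a mean 3.94-fold lower. This probe lies at 86562463 to 86562522 on chromosome 9. A second one at 86620976 to 86621035 was not well above background in either RNA, and averaging it in left -0.92 and -1.22, a mean of -1.07, which is no longer a call since the first array is short of 2-fold. Without Snap91 the set held 36 detected genes with a median of 0.09.

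Of the 16 syntaxins 13 were detected, more than in any other of these families, with a median of 0.11, 9 genes above 0 and none called. Stx7, the syntaxin of late endosomes, had the highest ratios at 1.16 and 0.68, from signals of 7445 against 3328 and of 6243 against 3899. It passed 2-fold on the first array only. Stx8, its partner in the same complex, had 0.32 and 0.30, and its other 3 probes gave means of 0.32, 0.28 and 0.32. The Stx8 difference was small and much the same with each of its 4 probes.

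**Figure D3:**
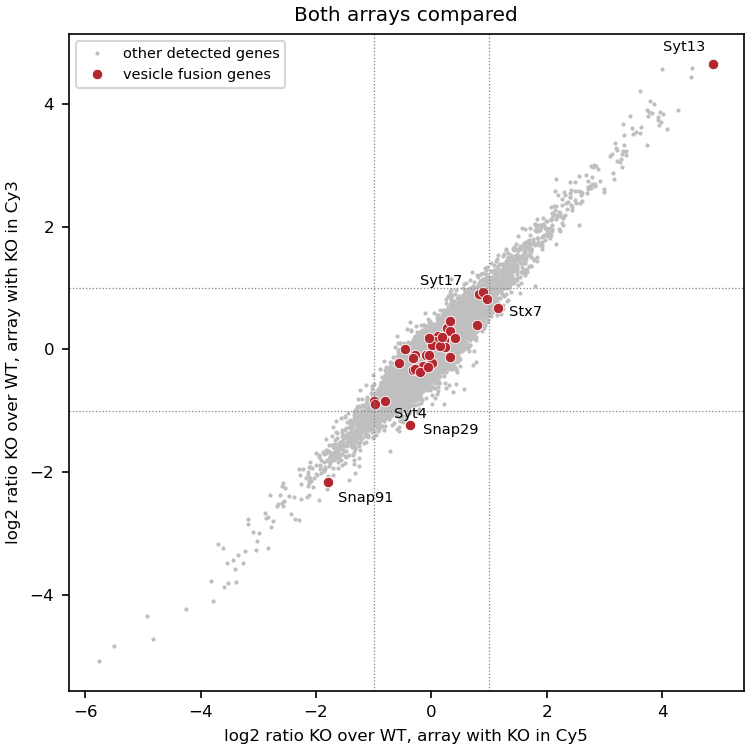
Log2 ratio of KO over WT on the array with KO in Cy5 (x axis) and with KO in Cy3 (y axis) for every detected gene, with the 37 detected members in red and dotted lines at 2-fold. Members lie along the diagonal, with Snap29 (-0.36 and -1.24) farthest from it and Stx7 (1.16 and 0.68), Vamp2 (-0.46 and 0.01) and Stx16 (0.32 and -0.12) next.

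Stx18, a syntaxin of the endoplasmic reticulum (ER), was the lowest of the family at -0.99 and -0.85, from signals of 3397 against 6732 and of 3456 against 6227. It lay just outside 2-fold on each array. Stx5a, which acts between ER and Golgi, was at -0.56 and -0.23, and its other probe had a mean of -0.35. Detected syntaxins of the plasma membrane other than Stx3, which follows, had small ratios above 0. Stx4a was at 0.01 and 0.07, Stx2 at 0.08 and 0.14, Stx11 at 0.21 and 0.15, and Stx1a, best known from neurons, at 0.29 and 0.37. Stx6 of the Golgi was at 0.26 and 0.34, Stx12 of endosomes at -0.10 and -0.09, and Stx17 of autophagosomes at 0.01 and -0.23. The other Stx17 probe was at 0.14 and 0.08. Stx16 gave 0.32 and -0.12 with its brightest probe and 0.48 and 0.52 with its other one.

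Stx3, a plasma membrane syntaxin of polarised cells, was measured by 5 probes that did not give the same ratio. The brightest gave 0.24 and 0.03. The probe at 11850146 to 11852458 on chromosome 19 gave 0.93 and 1.07, the other value just outside the 2-fold rule, and the remaining 3 had means of 0.35, 0.25 and 0.09. All 5 were above 0 on both arrays. Among detected probes of the members, ratios of 1 gene spread over more than 1 log2 unit only for Syt13, while for 10 of the 20 genes with several detected probes they lay within 0.2.

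The syntaxin-binding proteins varied little. Stxbp2, which serves secretion in blood cells and epithelia, was at -0.04 and 0.19, Stxbp4 at -0.29 and -0.09, and Stxbp5 (tomosyn) at -0.14 and -0.27. Other detected probes did not share a sign, with means of -0.10 and 0.02 for Stxbp4 and of -0.18, 0.12 and 0.08 for Stxbp5. Stxbp3, which the array lists as Stxbp3a, was at 0.14 and 0.23. Each of these mean ratios was below 0.3 in size, and Stxbp6 was not well above background.

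Partners outside the name rule were taken from a list of 113 vesicle traffic genes, of which 96 were on the array and 74 were detected. The list was drawn up with earlier results of these arrays known. Rab3b was called higher, and Rab3c and Dysf were called lower. These 1 and 2 calls among 96 genes lie near the shares over all genes, 1.7% higher and 1.5% lower. The call of Rab3b was lost with its probes averaged (0.76 and 0.86), that of Dysf with median centring, and that of Rab3c when detection in both genotypes was asked for. The median of the detected genes was 0.03. Rab3b, a GTPase of secretory vesicles, had 1.29 and 1.61, from signals of 253 against 103 and of 247 against 80.7. Rab3c, a close relative, went the other way at -1.19 and -1.31 and was detected in the RNA labelled WT only, while Rab3a was at -0.63 and -0.95 and Rab3d at -0.24 and -0.33. The 4 Rab3 genes therefore did not share a direction. Dysf (dysferlin), which carries C2 domains and serves membrane repair, was at -1.49 and -1.40, from signals of 332 against 933 and of 368 against 974.

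Of 14 docking and priming genes of this list (the Rab3, Rab27, Unc13 and Rims families), 10 were detected. Among the detected ones 4 were above 0 and 6 below, with a median of -0.53. Their median was -0.33 on the array with KO in Cy3 alone and -0.22 with all probes of a gene averaged. Over all 14 genes, detected or not, the median was -0.03, with 7 above 0 and 7 below. This group was set after the values were seen. Some were lower without a call. Unc13a (Munc13-1), the priming factor of synaptic vesicles, was at -1.29 and -0.94, the active zone protein Rims2 at -0.80 and -0.83, and Rab27b at -0.996 and -0.56. Unc13b, the form of Munc13 found in many tissues, was at 0.04 on both arrays. Nsf, the ATPase that takes used SNARE complexes apart, was at -0.02 and -0.21, and its adaptor Napa at 0.11 and 0.20. In the exocyst, which tethers vesicles to the plasma membrane, Exoc6 was at -0.84 and -0.89 while the 7 other subunits had means from -0.07 to 0.33.

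Genes were then grouped by the membrane step they serve, a choice made after the values were seen. The 4 late endosome SNAREs put in a group were all higher in the RNA labelled KO. Stx7, Stx8, Vti1b and Vamp8 together form a SNARE complex of that compartment. Vamp7, listed as Sybl1, was not put in this group and was at 0.12 and -0.05. Vti1b, from the traffic list, had 0.90 and 0.82, and the median of the 4 was 0.88. All 4 stayed above 0 under each of the 10 alternatives that could be run on them, with medians from 0.75 to 0.96. Those alternatives reprocess the same 2 arrays, so they cannot check a group chosen by its values. The HOPS complex, which tethers late endosomes to lysosomes, had all of its 6 measured subunits above 0, from 0.07 for Vps39 to 0.83 for Vps33a, with a median of 0.36. With all probes of a gene averaged the median was 0.27 and Vps33a was at 0.40. Vps39 was at 0.21 and -0.07 and so below 0 on the array with KO in Cy3. The 9 SNAREs between ER and Golgi were mixed, 4 above 0 and 5 below, with a median of -0.27. It was -0.14 and -0.16 on the single arrays, and 2 were above 0 and 7 below with all probes of a gene averaged. Since these groups were set after the values were seen, they describe these RNAs and carry no test.

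**Figure D4:**
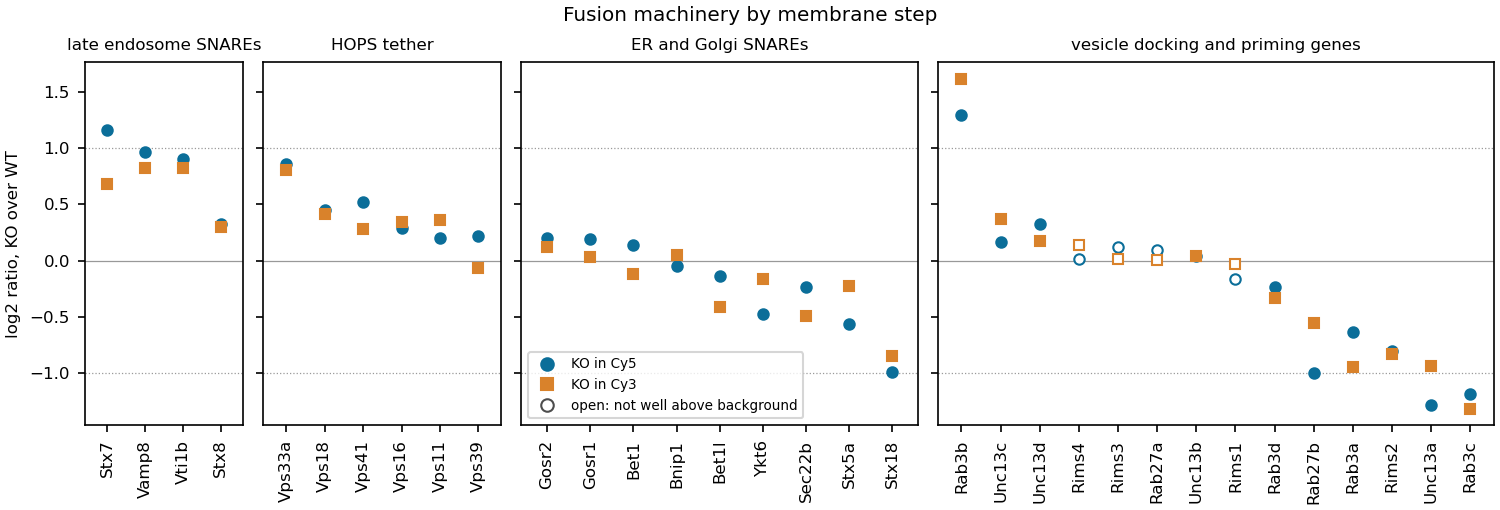
Log2 ratio of KO over WT on each array (y axis; circles, KO in Cy5; squares, KO in Cy3) for genes of 4 groups (x axis), with open symbols for genes not well above background and dotted lines at 2-fold. The late endosome SNAREs of the group lie between 0.30 and 1.16, whereas docking and priming genes reach from -1.31 to 1.61.

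The members differed in how far their values moved with the processing. Syt13 and Snap91 kept their direction under each of the alternatives tried, with means from 2.44 to 6.05 and from -2.16 to -1.07. Vamp8 and Stx18 kept within 0.82 to 1.001 and -0.99 to -0.85. Stx7 ranged from 0.68 to 1.16, the values of the single arrays, and Snap29 from -1.24 to -0.36. Syt4 (-3.59 to -0.72) and Syt17 (0.82 to 3.16) moved with the background step.

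**Figure D5:**
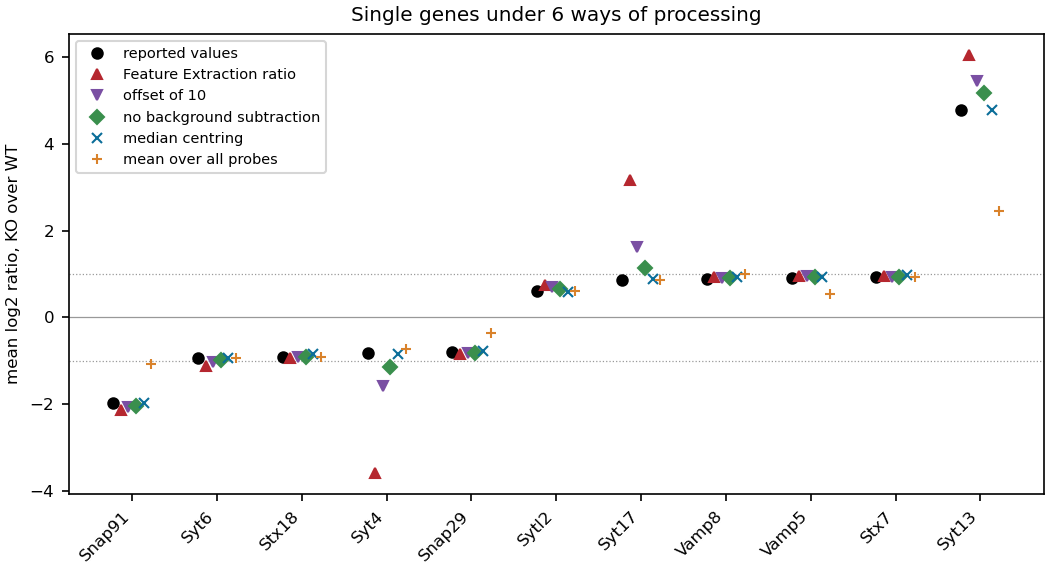
Mean log2 ratio of KO over WT (y axis) of the 11 members with a mean of at least 0.5 in size (x axis), under the reported processing (black circles) and 5 alternatives given in the legend. Syt4 and Syt17 spread widest below and above 0 by background treatment, and Syt13 drops to 2.44 when its probes are averaged.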

How the data were processed

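Per the file headers, Agilent Feature Extraction 10.5.1.1 read both arrays, and the authors deposited each spot's mean and local background intensity, with Feature Extraction's log10 ratio of Cy5 over Cy3 beside it. The deposited log2 table held KO over WT from the processed signals, within 0.001 for every probe spotted once and present (40698 and 40685 probes). Its columns had medians of -0.02 and 0.04. Probe positions are on NCBI36. Their place within exons was not analysed here.

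Intensities were corrected by normexp with an offset of 50, which pulls ratios of dim probes towards 0, and normalised by loess within each array (limma 3.58.1, R 4.3.3). Control and outlier spots (390 and 378) were left out. Spots of a probe were averaged, the dye-swapped array was turned and both arrays were averaged. The brightest usable probe stood for a gene. Calls needed 2-fold on each array, the threshold of the study's methods, and the flag for signal well above background in at least a share of 0.5 of a probe's spots. A gene dark in 1 genotype on both arrays has a bound, from channel values after Aquantile normalisation, against the higher of its own signal and the lowest signal among detected probes (59.8 to 67.3 units). The number of arrays limits the precision. Steps were tested on simulated data.

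Members and lists were chosen with earlier results of these data known. Named genes were those called, those detected with a mean of at least 0.5 in size and 1 sign, those next to the threshold, the brightest of each family, those whose probes disagreed, those with a bound, and called genes of the traffic list. Others are given for their role. A member is counted but not reported by name here. Of 104 member probes, 86 matched a RefSeq accession, and 1 of them had another symbol there. Tables and plots used Python 3.11.15, pandas 2.3.3, scipy 1.17.1 and matplotlib 3.10.9.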

Additional observations from a re-analysis of the deposited data

How the results depend on the processing

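No paired analysis was possible because the groups are the dye orientations of the same RNAs, with 1 array each. With Feature Extraction's ratio, and equally with the deposited log2 table, 2 members were called higher and 4 lower, 3 and 5 genes of the traffic list, and 941 and 866 of all genes. An offset of 10 gave 2 members higher and 2 lower, 4 list genes lower, and 653 and 569 of all genes higher and lower. Without background subtraction 2 members were lower, and 544 and 488 of all genes were higher and lower. Median centring left 1 list gene lower (Rab3c), and 250 and 138 of all genes. Asking for detection in both genotypes left 1 list gene lower (Dysf), and 414 and 394 of all genes higher and lower. Averaging all probes of a gene left 0 members lower and 0 list genes higher. On single arrays, members called higher numbered 1 to 2 (Stx7 beside Syt13 with KO in Cy5) and lower 1 to 2 (Snap29 beside Snap91 with KO in Cy3). List genes called were 1 higher and 2 to 3 lower, and all genes 521 to 561 higher and 466 to 538 lower. The median of members was 0.01 to 0.02 and that of the list -0.05 to 0.09.

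The methods' t-test at its threshold called 1 member higher and 0 lower. After Benjamini-Hochberg adjustment it called 0 genes in either direction among members and among all genes, where it had called 408 higher and 358 lower unadjusted. With 1 degree of freedom from 2 arrays, that test hardly gives p-values small enough to pass adjustment over so many genes. The 0 calls therefore say little. On the same values limma called 1 member higher and 1 lower, and 517 and 489 of all genes. Both compare hybridisations of the same RNAs, not genotypes. Of 108 recomputed values for 11 members, 78 moved by less than the SD between arrays, 22 became larger and 8 smaller by more than it, and 0 changed sign. These counts are partly fixed in advance. Asking for detection in both genotypes leaves a ratio as it is, and 0 member probes carried an outlier flag. The deposited table repeats Feature Extraction's ratio for these members, so its moves count again. The 11 members were picked for 1 sign on both arrays, so single arrays could not change it. The causes were not tested. Signal over background limits Syt4, Syt17 and the undetected members.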

Other observations

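Genes around the Vamp5 and Vamp8 probes on chromosome 6 (NCBI36) were looked at after their values were seen. Tmem150, whose probe starts 10117 bases from that of Vamp5, was called higher in the RNA labelled KO, at 1.58 and 1.53. The probe of 2500002L14Rik next to it was at 0.66 and 0.37. On the same side 0610030E20Rik, starting 21547 bases from Vamp5, was at -0.52 and -0.53, with further probes at means of -0.01 and -0.19. Farther out, Usp39 was at -0.14 and -0.13, Ggcx at -0.29 on both arrays, Mat2a at -0.01 and 0.03, AK050582 at -0.47 on both arrays, and 4930414L22Rik at 0.34 and 0.15. A dimmer Vamp5 probe and TC1671287, an unnamed transcript in between, had means of 0.17 and 0.30. No test was run. Near Syt13, Prdm11 was at 0.20 and 0.13. AK038982, whose probe starts 20971 bases from that of Snap91, was at -0.74 and -0.42 and not called.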
